A study of Mus musculus with 8 samples.

Results

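Per the sample titles, phosphorylated CREB1 was mapped by chromatin immunoprecipitation and sequencing in mouse skeletal muscle. A total of 1765 regions with a peak in every antibody library lay at an end of exactly 1 protein-coding gene. They belonged to 1759 genes and were chosen by measured values, among 17607 regions in all. The rule merged the authors' peaks of the 4 antibody libraries where they overlapped by 1 bp or more, kept regions with a peak in all 4 lists, and kept those whose summits, the points of highest signal, lay within 1000 bp of an end of the span of a single protein-coding gene. Of all merged regions, 16.9% had a peak in all 4 lists, 2978 regions. Beside the 1765 members, 545 of these lay near the ends of several genes (paired gene ends, such as promoters shared by neighbouring genes) and 668 lay near none. Presence in all 4 lists and position at a gene end are therefore the selection and no finding.

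The series holds 8 samples of muscle from mice. CTRL denotes control mice, with 2 antibody and 2 input libraries. C26 denotes mice carrying the C26 colon carcinoma, a transplanted tumour that causes cachexia, the wasting of muscle during cancer, again with 2 antibody and 2 input libraries. Per the labels' protocols the C26 mice were male Balb/c animals injected under the skin of the flank at 2 months of age, and no age is given for the CTRL mice. The same protocols mention rolipram, an inhibitor of cAMP phosphodiesterase, or vehicle in tumour-bearing mice, without stating which the mice used here received. The tissue is labelled gastrocnemius and described as quadriceps in the extraction protocol, and the antibodies are named as against CREB or phospho-CREB1. Nothing says that replicates came from separate animals, so p-values measure only the spread between libraries, which may be technical.

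CREB1 is a transcription factor that protein kinase A and other kinases phosphorylate when cAMP or calcium rises, after which it recruits the coactivators CBP and p300. It binds the cAMP response element (CRE), a palindrome whose short form, the core TGACG, is also bound. In muscle, cAMP signaling is known for its part in fuel use, fiber maintenance and the immediate early response to activity. Muscle tissue is mixed, and more bound cells cannot be told apart from more bound DNA per cell.

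The DNA at the members is shown first, since sequence was not used to choose them. Of the 1765 members, 1447 matched a RefSeq promoter entry (GRCm38.p6), the 250 bases before and 50 after a gene start. The full CRE, TGACGTCA, was found in 163 of these windows. Of the 10 strongest such members, 7 had the element in a printable stretch before the gene start, and these 7 are shown in the direction of the gene, 5′ to 3′, with the full element in capitals. They are examples, and the shares given below count all windows of each set.

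Nup133 (chr8:123949299-123949358, minus strand): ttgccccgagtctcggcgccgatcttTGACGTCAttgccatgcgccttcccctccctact
Bdp1 (chr13:100104087-100104146, minus strand): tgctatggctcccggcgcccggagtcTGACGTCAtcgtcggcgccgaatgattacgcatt
Cdadc1 (chr14:59597973-59598032, minus strand): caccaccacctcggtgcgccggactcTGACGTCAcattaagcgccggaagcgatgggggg
Aasdh (chr5:76905490-76905549, minus strand): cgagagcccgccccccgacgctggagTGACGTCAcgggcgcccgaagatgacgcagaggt
Zfand2a (chr5:139484583-139484642, minus strand): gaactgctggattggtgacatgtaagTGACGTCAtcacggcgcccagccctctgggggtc
Ndufa10 (chr1:92473792-92473851, minus strand): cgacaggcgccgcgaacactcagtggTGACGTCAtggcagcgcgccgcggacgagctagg
Ranbp6 (chr19:29812985-29813044, minus strand): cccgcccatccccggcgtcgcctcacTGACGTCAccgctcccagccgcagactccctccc

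The summits lay almost on these elements. At Bdp1, which encodes a subunit of the initiation factor of RNA polymerase III, they lay -5.5, 2.5, -5.5 and 19.5 bp from the centre of the element in the 4 libraries. Sets of 4 values are given here and below in the order CTRL replicate 1, CTRL replicate 2, C26 replicate 1, C26 replicate 2, and a negative distance is upstream in the gene's direction. At Ndufa10, a subunit of respiratory complex I, these distances were 10.5, 6.5, 3.5 and -12.5 bp. At Ranbp6, an importin-like transport receptor, they were 13.5, -9.5, 10.5 and -4.5 bp. At Nup133, a scaffold protein of the nuclear pore, they were 16.5, 3.5, 18.5 and 9.5 bp from the printed element, and another full element lay at -120.5 bp from the start. At Aasdh they were 2.5, 16.5, -4.5 and 15.5 bp, and at Cdadc1 22.5, 24.5, 25.5 and 30.5 bp. Zfand2a, a zinc finger gene, was the exception among the 7. Its summits lay 130.5, 99.5, 110.5 and 129.5 bp downstream of the full element, and 5, -26, -15 and 4 bp from a separate TGACG core next to the start.

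Many strong members had only the short core. Examples of this kind are shown as the 250 bases before the start, with every TGACG on the printed strand in capitals: Nup153, the strongest member with a promoter entry, and Fos and Junb, immediate early genes on the list of known CREB1 targets and picked for that reason.

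Nup153 (chr13:46727850-46728099, minus strand): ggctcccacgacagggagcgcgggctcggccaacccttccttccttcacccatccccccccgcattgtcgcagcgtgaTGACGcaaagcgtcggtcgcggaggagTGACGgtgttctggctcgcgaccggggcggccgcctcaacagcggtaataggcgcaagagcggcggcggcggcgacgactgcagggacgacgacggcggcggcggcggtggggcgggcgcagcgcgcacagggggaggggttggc
Fos (chr12:85473640-85473889, plus strand): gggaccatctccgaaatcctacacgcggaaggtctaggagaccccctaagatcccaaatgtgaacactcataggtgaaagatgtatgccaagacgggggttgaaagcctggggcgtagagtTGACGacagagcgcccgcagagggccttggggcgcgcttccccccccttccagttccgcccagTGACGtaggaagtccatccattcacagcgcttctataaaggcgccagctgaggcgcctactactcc
Junb (chr8:84978749-84978998, minus strand): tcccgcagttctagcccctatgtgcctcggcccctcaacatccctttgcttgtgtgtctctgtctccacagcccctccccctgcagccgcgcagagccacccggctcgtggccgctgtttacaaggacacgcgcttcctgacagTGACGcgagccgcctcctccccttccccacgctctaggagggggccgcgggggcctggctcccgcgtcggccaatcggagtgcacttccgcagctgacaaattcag

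At Nup153, a protein of the nuclear basket of the pore, the summits lay 5, -4, -9 and -5 bp from the upstream core and within 36 bp of the other core in every library. At Fos they lay 18, 50, 4 and 25 bp from the core at -127 and -45, -13, -59 and -38 bp from the core at -64. At the start region of Junb they lay 22, 9, 24 and 2 bp from its 1 core. These are positions of letters and do not show which element was bound.

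Over all 163 members with a full CRE, the median distance from summit to the nearest full element was 12.5, 14.5, 12.5 and 19.5 bp, in the order given above. In the same members the median distance to the gene start was 45, 44, 43 and 47 bp. The summit was nearer to the element than to the start in 82.8%, 81.0%, 78.5% and 73.0% of them. Summits within 50 bp of the element made up 89.6% (95% Wilson interval 83.9 to 93.4) in CTRL replicate 1 and 79.8% (72.9 to 85.2) in C26 replicate 2, the highest and lowest of the 4 libraries. For the TGACG core, present in 873 members, the median distances were 20, 19, 22 and 29 bp. For the GC box GGGCGG, a site of SP1-type factors present in 1070 members, they were 55.5, 52.5, 55 and 62.5 bp, and for the ETS site CCGGAAGT 45.5, 46.5, 45.5 and 66.5 bp over 151 members. A member with more copies of a motif has a shorter distance to the nearest by construction. The GC box, present in more members than the core, lay farther from the summits in each library. Summits of members with a GC box also lay farther from the start, at medians of 86.5, 88, 86.5 and 105 bp. In members with the core these medians were 59, 56, 58 and 69 bp. The part of this difference in the motif distances was not tested.

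**Figure D1:**
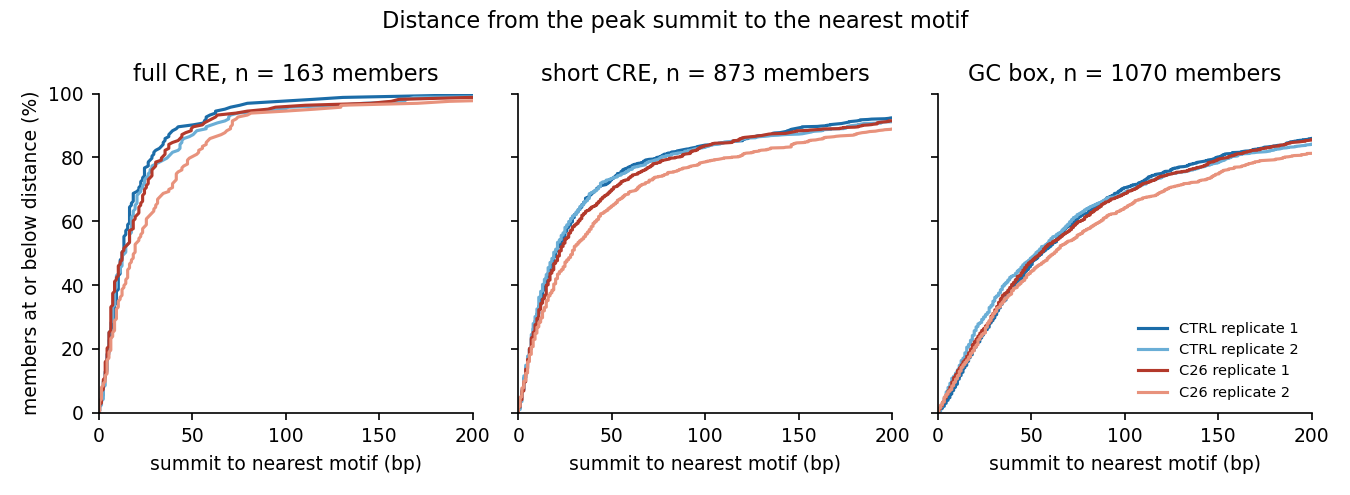
Share of members (%) whose summit lies at or below a given distance (bp) from the nearest full CRE (163 members), TGACG core (short CRE, 873 members) or GC box (1070 members), 1 line per library. The lines rise fastest for the full CRE, where the median was 12.5 to 19.5 bp, and slowest for the GC box, where it was 52.5 to 62.5 bp.

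The full CRE was more common in the members' promoter windows than in those of other genes. It stood in 11.3% of member windows (95% Wilson interval 9.74 to 13.0), or 9.85% (8.55 to 11.3) when every entry of the member genes was counted, as in the other sets. Without C26 replicate 2, which leaves 3555 regions, the share at the nearest entry was 7.33%. Windows of genes at shared paired gene ends held it in 7.56% (6.16 to 9.24), an interval that overlaps that of every entry of the member genes. Those of genes whose gene-end peak was not in all 4 lists held it in 1.66% (1.38 to 2.01), those of genes with no gene-end peak in 0.902% (0.748 to 1.09), and all windows in 2.23%. Both strands were searched throughout. Only 7 members held 2 full elements and none held more. The median position of the 170 full elements was 42.5 bp before the gene start, with quartiles at 83 and 15 bp before it, and 45.3% lay in the last 50 bp before the start.

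The TGACG core, which every full CRE contains, was found in 60.3% of member windows (57.8 to 62.8), or 55.7% (53.4 to 58.0) with every entry of the member genes counted. Counted the same way, it was found in 50.2% (47.3 to 53.1) at paired gene ends, 26.9% at genes with a peak in only some lists, 14.6% at genes with no gene-end peak and 23.6% of all windows. Other forms were rarer: TGACGTG stood in 5.80% of all windows of the member genes, TGACGCAA in 2.76% and TGACGTAA in 2.31%, against 2.17%, 0.64% and 0.53% of all windows. Of the 1077 cores outside a full element, 570 pointed in the direction of the gene, 52.9%. The base just before a full element was G in 52.7% and T in 5.39% of the 167 elements whose neighbours lay in the window.

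Base composition also differed between these sets, and its part in the shares was not tested. With every entry counted, the median GC content was 61.7% in windows of the member genes, 61.7% at genes with a peak in only some lists and 51.3% at genes with no gene-end peak, with a median of 24, 21 and 5 CpG dinucleotides. The GC box stood in 69.9%, 66.1% and 30.5% of the 3 sets, the ETS site in 9.63%, 8.81% and 1.92%, the NRF1 site GCATGCGC in 5.57%, 6.08% and 1.75%, and CCAAT in 44.0%, 38.0% and 37.0%. The AP-1 site TGANTCA went the other way, with 4.17%, 4.40% and 9.13%. The YY1 site AAGATGGC stood in 4.62%, 4.92% and 1.43%, and the E-box CACGTG in 11.6%, 10.0% and 5.87%. Every CRE form named here contains TGACG and none of these other motifs does.

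**Figure D2:**
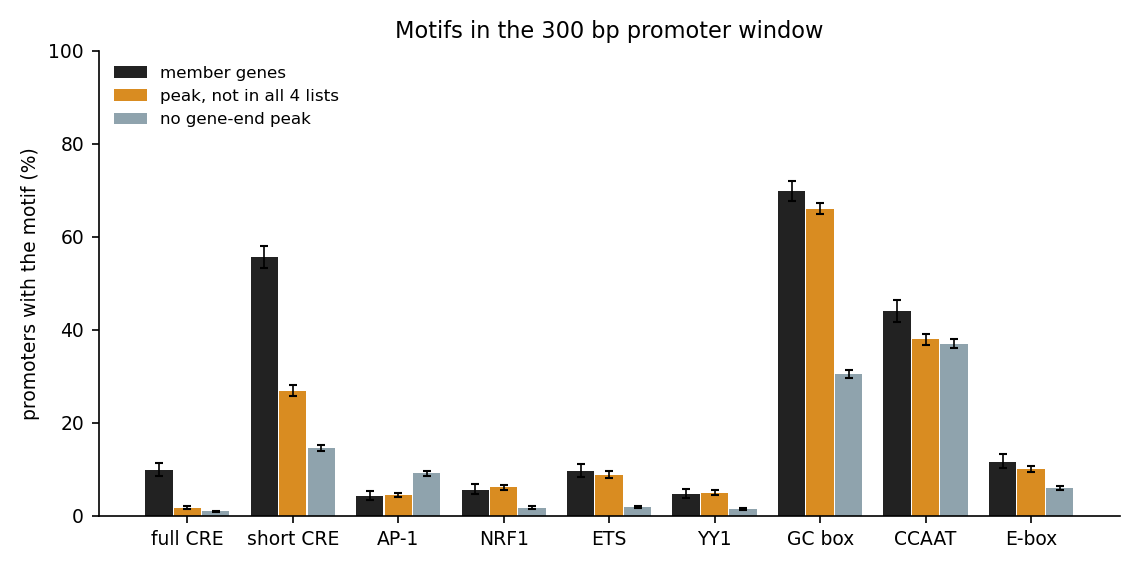
Share of promoter windows of 300 bp (%) holding each motif, with every promoter entry counted, for the member genes, for genes with a gene-end peak that is not in all 4 lists, and for genes with no gene-end peak; error bars are 95% Wilson intervals. The full CRE stands in 9.85%, 1.66% and 0.902% and the TGACG core (short CRE) in 55.7%, 26.9% and 14.6%, while the GC box is common in both sets with peaks.

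Where the summit lay outside the printed window, the elements were scarce in it. Of the 1447 members, 1093 (75.5%) had their median summit inside the 300 bp, and of these 14.7% (12.8 to 17.0) held a full CRE and 71.4% (68.6 to 74.0) a TGACG core. In the other 354 members the shares were 0.565% (0.155 to 2.04) and 26.3% (22.0 to 31.1). The latter share is near the 23.6% of all windows. The 3 strongest members with no TGACG in the window, Rap2a, Fbxw7 and Nelfa, show the spread of this class. The summits at Rap2a, a Ras-family GTPase, lay at -551 to -579 bp from the start, and those at Fbxw7, the substrate adaptor of a cullin ubiquitin ligase, lay at -1062 to -1102 bp from the nearest start entry. Those at Nelfa, a subunit of the negative elongation factor, lay at -200 to -208 bp, inside the window.

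Stronger members held the elements more often. The strength of a peak is given as its percentile by −log10 q, the caller's significance, within its own library's list, since values of different lists are on different scales. Ranked by the lowest of their 4 percentiles and divided into 5 classes from weak to strong, the members held a full CRE in 1.39%, 4.44%, 13.4%, 14.1% and 23%. They held a TGACG core in 39.4%, 49.5%, 58.0%, 70.4% and 84.3%. The GC box stayed between 67.6% and 76.5%, CCAAT between 42.9% and 48.4%, and the median GC content went from 63.3% in the weakest to 60.7% in the strongest class. The share of the full CRE differed more than 10-fold between the end classes, while the GC box and CCAAT stayed in the ranges given. The ETS site stood in 9.06% of the weakest and 12.9% of the strongest class, with overlapping intervals, and the NRF1 site in 6.27% of both. The part of summits outside the window in these trends was not tested.

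The same held library by library. Members with a full CRE had a median percentile of 93.5 against 84.7 without it in CTRL replicate 1, and the other 3 libraries had 95 against 89.2, 90.7 against 77.9 and 80.1 against 62.6. The mean difference was 11.2 percentile points ± 5.05 (SD, n = 4 libraries), higher in 4 of 4 libraries, with an exact two-sided sign-flip permutation p of 0.125. That is the smallest p that 4 libraries allow, and it was 0.3125 after Benjamini-Hochberg adjustment over the 5 tests made. The same members were compared in each library, as are the same regions in the sign-flip tests below. Such a p does not measure the spread between regions. Without C26 replicate 2 the difference was 19.5 over 3555 regions. With 0, 1, 2 and 3 or more TGACG cores the median percentile was 78.0, 87.4, 91.0 and 94.9 in CTRL replicate 1 and 51.4, 65.0, 76.7 and 83.8 in C26 replicate 2, and the other libraries showed the same order.

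**Figure D3:**
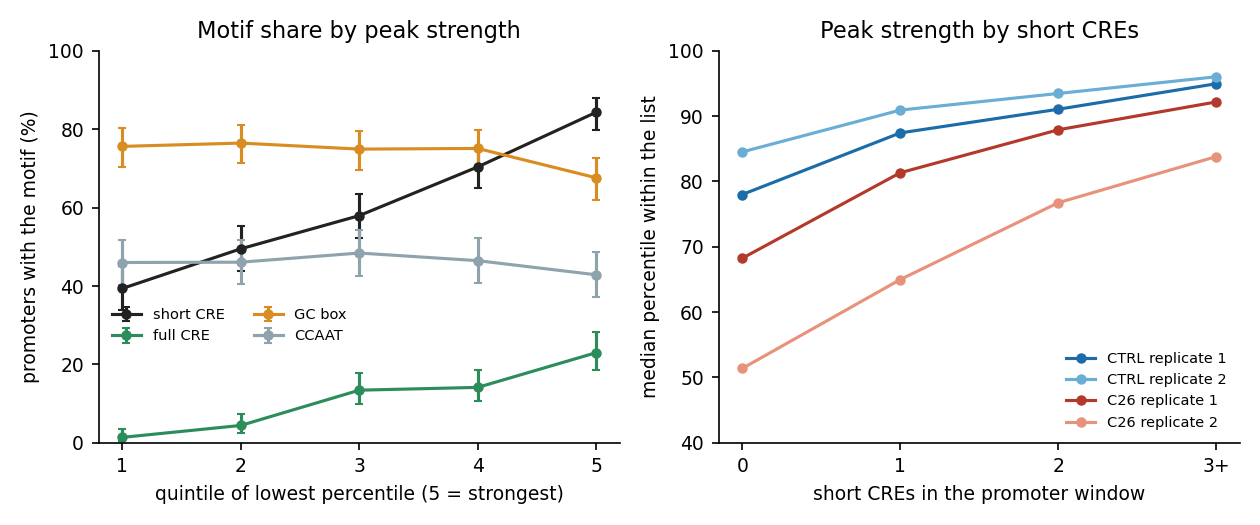
Left, share of member promoter windows (%) with each motif by class of peak strength (5 is strongest), with 95% Wilson intervals. Right, median percentile of the members' peaks within each library's list by number of TGACG cores (short CREs) in the window; the lines rise in all 4 libraries, from 78.0 to 94.9 in CTRL replicate 1.

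The rule keeps regions called in all 4 lists, so the members' level in each list is part of the selection and is given as a description. The lists held 10835, 14975, 7482 and 4051 peaks. Member peaks made up 16.6%, 11.8%, 24.0% and 44.0% of them. The depth of the libraries is unknown, and the short list of C26 replicate 2 set much of the membership: 1354 of 1765 members had their lowest percentile there, and without that library the rule found 3555 regions. Fold enrichments, as the authors' caller gave them, had medians of 13.8, 19.8, 8.4 and 8.38 in the members, and are not comparable between lists.

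Among regions shared by all 4 lists, members ranked higher than those away from gene ends in each list. The median percentile of the members was 86.1, 90.2, 79.9 and 65.0. In shared regions away from gene ends it was 73.4, 79.1, 63.6 and 53.1. The mean difference was 13.0 percentile points ± 2.3 (SD, n = 4 libraries), higher in 4 of 4 libraries, with an exact sign-flip permutation p of 0.125 and 0.3125 after adjustment. Against shared regions at paired gene ends, with medians of 85.2, 89.3, 79.9 and 63.2, the difference was 0.888 points ± 0.717 (SD, n = 4), which the exact permutation test did not separate from 0 (p = 0.25, adjusted 0.417). Without C26 replicate 2 this difference turned to -1.96. In all, 244 members were above the 90th percentile in all 4 lists, and 8 were below the 50th in all 4.

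The 12 strongest members included genes of the proteasome, the nuclear pore and the transcription and RNA machinery. Psmb2, a subunit of the catalytic core of the proteasome, led with fold enrichments of 143.8, 217.0, 129.0 and 64.4, and no other gene had a higher lowest percentile (99.95). Its 4 summits lay within 1 bp of each other, and the nearest was 19 bp from an end of the gene span. Fbxw7 had 127.6, 191.3, 48.9 and 50.9. Among pore proteins, Nup153 had 119.4, 237.7, 193.0 and 53.1, and Nup133 had 109.7, 156.5, 93.3 and 48.5. Magohb, of the exon junction complex that marks spliced RNA, had 139.7, 148.3, 65.3 and 51.1. Its full CRE lay 15.5 bp after the start, and its summits were 3.5 to 7.5 bp from it. Of the others among the 12 strongest, Bdp1 and Nelfa serve RNA polymerases III and II, Guf1 mitochondrial translation, Sde2 replication and splicing and Rap2a GTPase signaling, with Cdadc1 and the zinc finger gene Rlf completing the set. All 12 were above the 99th percentile in all 4 lists.

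**Figure D4:**
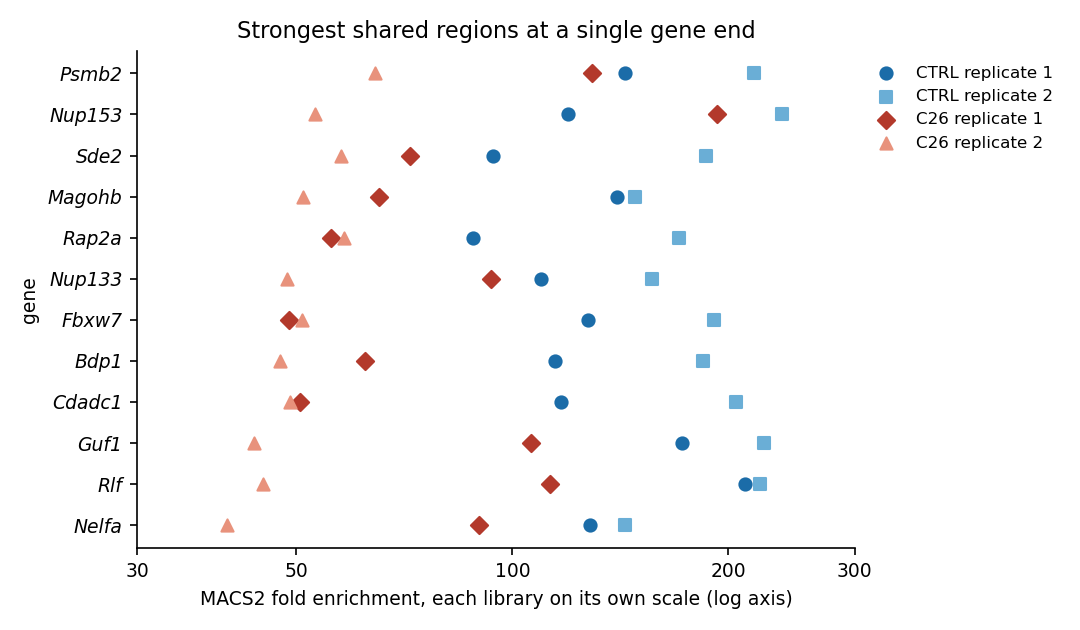
MACS2 fold enrichment (log axis, each library on its own scale) of the 12 members with the highest lowest percentile, 1 marker per library. C26 replicate 2 is between 40.04 and 64.4 and CTRL replicate 2 between 143.4 and 237.7.

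The 5 members whose highest percentile over the 4 lists was lowest included genes of muscle fibers and lipid use; the lowest single percentiles were elsewhere, such as 0.247 at 1 region of Pcbp2 in C26 replicate 2. Tnnt3, fast skeletal troponin T, had fold enrichments of 5.84, 5.28, 4.7 and 5.61 and percentiles of 28.6 to 36.6. Xirp1, an actin-binding protein of muscle attachment sites, had 6.58, 5.99, 3.96 and 6.11. Acadvl, the first enzyme of mitochondrial very-long-chain fatty acid oxidation, had 5.09, 6.54, 3.81 and 5.18, Abhd5, the activator of the lipase of fat droplets, had 4.12, 4.21, 4.75 and 4.49, and the growth factor gene Fgf1 had 5.9, 5.24, 4.7 and 6.03. All 5 stayed below the 50th percentile in each list.

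Summits clustered just upstream of the start. In members with a promoter entry, 1428 of 1447 had a summit in the window of the gene's start alone, 15 at its far end and 4 at both ends. Over all 1765 members the median absolute distance to the start was 82, 82, 81 and 95 bp in the 4 libraries. For members without a promoter entry, the nearest end of the gene span stood for the start. In members with an entry, between 73.1% and 75.2% of the summits were upstream of the start. The group means were 82.0 bp in CTRL and 88.0 bp ± 9.90 in C26 (SD, n = 2 each), a C26 minus CTRL difference of 6 bp with an exact permutation p of 1 (adjusted 1). With 2 libraries a group the smallest possible p is 0.333, so this design cannot reach 0.05. In 49 members (3.39%) the median summit was over 1000 bp from the nearest start entry. Some lay at the gene's far end, such as Slc11a1 (11691 to 11782 bp). At Aars (-6026 to -6047 bp) the nearest summit was 17 bp from a gene end that the entries do not cover. At Foxo3 (-1065 to -1113 bp) a summit lay 36 bp from a gene end, but the strongest peaks had theirs elsewhere.

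The summits of a member differed between libraries by a median range of 73 bp. They lay within 50 bp of each other in 636 members (36.0%) and within 100 bp in 1126 (63.8%), and the rule, which asks for summits near a single gene end, limits how far they can differ. Across the 1765 members Spearman's correlation of −log10 q between lists was 0.888 for the CTRL pair, 0.750 for the C26 pair and 0.751 to 0.877 between groups; the members share the peak caller and were all selected in each list. The summits differed most at Trim8 (1961 bp), Tob2 (1608 bp) and Cdc42ep3 (1333 bp). At Tob2, an antiproliferative gene, the strongest peak of C26 replicate 1 had its summit 1 bp from the start. Those of the other libraries had it at -1520 to -1607 bp. CTRL replicate 1 and C26 replicate 1 each had 2 peaks in this region, of which only the strongest was counted.

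**Figure D5:**
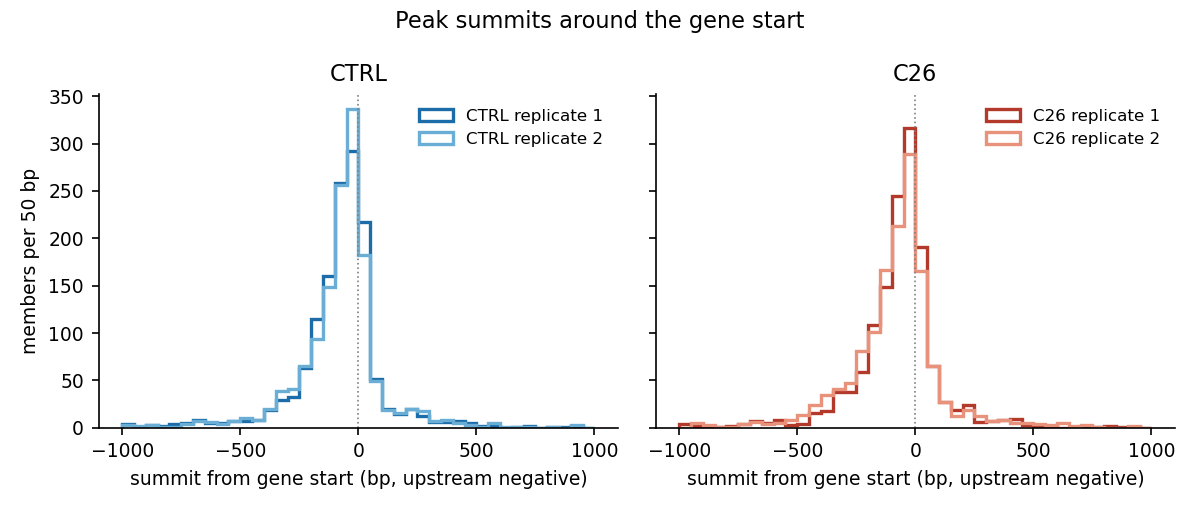
Number of members per 50 bp by the position of the peak summit relative to the nearest RefSeq gene start (bp, upstream negative), CTRL libraries left and C26 libraries right. The 4 profiles peak in the 50 bp before the start and are higher upstream than downstream.

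Member peaks were narrower in both C26 lists. The median width of the widest peak per member was 736, 856, 600 and 458 bp, again in the order given. The group means were 796 bp ± 84.9 and 529 bp ± 100.4 (SD, n = 2 each), and the groups did not overlap. The difference was -267 bp, with an exact two-sided permutation p of 0.333, the smallest that 2 libraries a group allow, and 0.417 after adjustment. Both C26 peaks were narrower than both CTRL peaks in 1293 members (73.3%), against 69.4% of all shared regions, 71.6% at paired gene ends and 57.5% away from gene ends. Both were wider in 8 members (0.453%), against 0.94% of all shared regions. The members make up 1765 of the 2978 shared regions, so their share is bound to lie near that of the whole. The share of narrower peaks in the members (interval 71.1 to 75.3) was near that at paired gene ends and above that away from gene ends (53.7 to 61.2). Over all peaks of each list, the median width was 481, 515, 433 and 420 bp. The C26 lists were also shorter, with 7482 and 4051 peaks against 10835 and 14975, and the part of list length in the width difference was not tested.

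The widest members were Klf13 (3807 bp), Gm20783 (3600 bp) and Zhx2 (3293 bp). Klf13, a Krüppel-like factor gene, had widths of 1392, 3807, 730 and 538 bp, so its span came from CTRL replicate 2. Gm20783 was wide in every library, 2978 to 3600 bp. Most members, 1699 of 1765, had exactly 1 peak in each list. Mnt and Ptma had the most, 7 peaks each over the 4 lists, and Foxo3 was one of several with 6.

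The genes with a member region were then read against lists of known roles. Of all protein-coding genes 8.04% had one. Shared regions at paired gene ends do not count here, by the rule. These lists were drawn up with earlier results of the data known and are given as counts. Among 56 genes known as CREB1 targets, 23 had a member region (41.1%, 95% Wilson interval 29.2 to 54.1). This list holds genes named for binding CREB1 in other work. The factors and coactivators themselves were members in 12 of 30, including Creb1, Crem, Atf4 and the coactivator genes Crebbp and Ep300. Creb1 had fold enrichments of 19.2, 26.2, 8.68 and 11.3, and Crebbp 29.1, 43.1, 10.3 and 9.4. Of 62 cAMP signaling genes 3 were members (4.84%, 1.66 to 13.3), an interval that holds the 8.04% of all genes. These were the protein kinase A catalytic subunit genes Prkaca and Prkacb, and Akap1, which anchors the kinase at mitochondria. Prkaca had percentiles of 95.8, 96.9, 94.9 and 85.9, and Akap1 84.5, 88.4, 86.2 and 34.2, so that C26 replicate 2 was far lower at Akap1. Circadian clock genes were members in 8 of 24, with Per1, a negative limb gene of the clock, at 26.8, 30.1, 15.5 and 13.2.

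Among the known CREB1 targets, Fos, Fosb and Nr4a3, immediate early genes picked as examples, varied in strength. Fos had fold enrichments of 22.6, 42.8, 13.99 and 14.1 and percentiles from 87.2 to 96.8. Fosb had percentiles of 89.97, 85.1, 83.7 and 30.5, and Nr4a3 90.9, 91.6, 77.5 and 68.6. C26 replicate 2 was the lowest library at all 3 genes, as it was in most members.

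Genes of protein synthesis and RNA processing contributed many members. Cytosolic ribosomal protein genes were members in 29 of 83 (34.9%, 25.6 to 45.7). Mitochondrial ribosomal protein genes were members in 7 of 81 (8.64%, 4.25 to 16.8), near the 8.04% of all genes. At paired gene ends, which the rule leaves out, 13 mitochondrial and 11 cytosolic ribosomal protein genes had a shared region. A member share near that of all genes thus does not mean that few of these genes had a shared region. Translation factor genes were members in 13 of 64 and aminoacyl-tRNA synthetase genes in 7 of 37. Spliceosome and splicing factor genes were members in 32 of 115 (27.8%), and 22 of their 27 promoter windows held a TGACG core. All components of the exon junction complex core on that list were members: Magoh, Magohb, Rbm8a, Eif4a3 and Casc3, singled out after their values were seen. Magoh had 85.1, 151.6, 53.0 and 36.7, Rbm8a 44.6, 63.1, 22.4 and 27.9, and Casc3 13.9, 19.3, 6.8 and 8.7. Nuclear pore and transport genes were members in 14 of 59, Mediator genes in 10 of 33, RNA polymerase and general factor genes in 17 of 82, and chromatin modifier genes in 22 of 147. DNA repair genes were members in 11 of 78 and genes named Zfp in 40 of 397 (10.1%). Outside the nucleus and protein synthesis, Rab and Vps trafficking genes were members in 37 of 177 (20.9%), centrosome and cilium genes in 17 of 98, and cyclins and cyclin-dependent kinases in 14 of 56.

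Several of these lists held full CREs before the start, and 6 are shown to let the surroundings of the element be compared across roles, again with the full element in capitals and in the gene's direction.

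Rps9 (chr7:3703958-3704017, plus strand): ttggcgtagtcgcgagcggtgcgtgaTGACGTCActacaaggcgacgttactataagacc
Snrpg (chr6:86371465-86371524, plus strand): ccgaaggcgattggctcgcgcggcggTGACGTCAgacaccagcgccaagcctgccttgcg
Gtf2f1 (chr17:57011435-57011494, minus strand): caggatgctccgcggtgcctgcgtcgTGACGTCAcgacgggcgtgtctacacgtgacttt
Brca2 (chr5:150522575-150522620, plus strand): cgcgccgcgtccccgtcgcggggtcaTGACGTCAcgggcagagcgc
Ndufb2 (chr6:39592525-39592564, plus strand): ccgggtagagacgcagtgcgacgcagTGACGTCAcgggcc
Ube2h (chr6:30304540-30304589, minus strand): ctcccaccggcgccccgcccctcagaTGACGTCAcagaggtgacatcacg

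Rps9, a protein of the small ribosomal subunit, had its summits 7.5, -5.5, 7.5 and 6.5 bp from the element. Brca2, a DNA repair gene, had them -5.5, -16.5, -18.5 and 0.5 bp away. Ndufb2, another complex I subunit, had -4.5, -4.5, 19.5 and 32.5 bp. Snrpg, a core protein of the spliceosomal particles, differed between libraries, with -5.5 and 5.5 bp in the first replicates of CTRL and C26 and -74.5 and -59.5 bp in the second.

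Protein turnover genes were members more often than the 8.04% of all genes, least clearly the cullin partner genes. Heat shock protein and chaperone genes were members in 31 of 103 (30.1%), and atrophy and autophagy genes in 14 of 46 (30.4%). The latter included Foxo3, the transcription factor that drives atrophy genes, with fold enrichments of 22.1, 33.7, 16.9 and 17.0, and Fbxo32, the muscle ubiquitin ligase atrogin-1, with 5.3, 13.1, 4.1 and 7.5. Atg5, needed for the growth of the autophagosome, had 32.5, 77.1, 20.5 and 17.9. Ubiquitin-conjugating and deubiquitinating enzyme genes were members in 23 of 111 (20.7%, 14.2 to 29.2) and proteasome genes in 9 of 53 (17.0%, 9.20 to 29.2). Cullin partner genes were members in 10 of 71 (14.1%, 7.83 to 24.0), an interval that holds the 8.04% of all genes. At these genes too, values in C26 were given on other scales than in CTRL and were not compared.

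Mitochondrial lists ranged from near the background to above it when only single gene ends were counted. TCA cycle and fatty acid oxidation genes were members in 11 of 46 (23.9%), complex I subunit genes in 5 of 38 (13.2%, 5.75 to 27.3), genes of complexes II to V and cytochrome c in 8 of 45, assembly factor genes in 6 of 50, dynamics and quality control genes in 6 of 33, biogenesis regulators in 4 of 34 and import genes in 4 of 44 (9.09%). At paired gene ends, which the rule leaves out, 13 assembly factor, 7 import and 5 biogenesis regulator genes had a shared region. So did 5 dynamics, 4 TCA cycle and fatty acid oxidation, 4 complex II to V and 3 complex I genes. The complex I members were few and strong, with a median lowest percentile of 94.3, against 61.0 in all members. Mfn2, which fuses outer mitochondrial membranes, had 108.4, 162.7, 54.5 and 40.8 and 4 TGACG cores in its window. Cycs, cytochrome c, had 23.5, 40.2, 19.1 and 14.3, and its full CRE lay at -165.5 bp from the start.

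Genes that define muscle fibers had member regions about as often as the 8.04% of all genes. Sarcomere genes were members in 3 of 46 (6.52%), Tnnt3, Des and Xirp1, with a median lowest percentile of 25.3, and myogenic regulators in 2 of 25, Tead1 and Mef2d. Glycolysis and glycogen genes were members in 8 of 34, but only 1 of their 7 promoter windows held a TGACG core. Markers of other cell types in muscle had no member region: 0 of 16 endothelial (upper Wilson bound 19.4%), 0 of 16 fibroblast (19.4%), 0 of 20 leukocyte (16.1%) and 0 of 12 adipocyte and Schwann cell genes (24.2%). Member regions at these lists therefore do not identify the tissue. Pgk1, a glycolytic enzyme gene, had fold enrichments of 14.2, 278.5, 8.7 and 22.3. The CTRL replicate 2 value was the highest of any member in that list, while its percentiles were 84.4, 76.4 and 94.7 in CTRL replicate 1 and the 2 C26 libraries.

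A few members departed from the usual place. Kpnb1, Pcbp2, Polr3gl, Sertad1, Zfp36 and Junb had 2 member regions each, a group picked out after their values were seen, like the next. At Junb the region at the start had fold enrichments of 15.1, 33.0, 15.6 and 9.5 and that at the far end 8.6, 7.8, 10.2 and 7.2. At Zfp36, which encodes an RNA-destabilizing protein, the far end was the stronger, with 9.2, 14.5, 6.5 and 11.1 against 8.0, 6.7, 4.2 and 6.2. Pomc, Bad and Slc11a1 were among the 15 members at the far end alone. Mt1, a short metallothionein gene with both ends in the window, had 7.5, 12.7, 10.1 and 18.4, and its percentile of 92.2 in C26 replicate 2 was its highest.

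By chromosome, members were found at 2.69% of the genes on X (26 of 966) and 1 of 256 genes on Y, against 6.17% to 10.8% on the autosomes. An end of a non-coding gene also lay in the window of 346 members (19.6%), a long non-coding RNA gene in 287 (16.3%), compared with 21 of 545 regions (3.85%) at paired gene ends and 100 of 668 (15.0%) away from gene ends. The rule reads protein-coding genes alone and does not count these. At the edge of the window, Wars2, Gm34296 and Fmc1 were members with their nearest summits 998, 997 and 988 bp from a gene end. Adamts1, Wdcp and Srsf1 missed it with 1008, 1009 and 1012 bp, and Srsf1 had fold enrichments of 11.1, 28.9, 8.68 and 7.48, not below those of many members.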

How the data were processed

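The data are 4 per-library lists of peaks, 1 for each antibody library (2 CTRL, 2 C26), analysed as deposited; the 4 input libraries have no list of their own here. The submitters' processing notes list MACS2 2.1.4, Bowtie2 2.3.5.1, FastQC 0.11.2, SAMtools 1.6 and Picard, on mm10 (GRCm38); the settings and the chromosome filter are not given in the sources used here. The deposited lists give each peak's fold enrichment, a ratio, its p-value as −log10, its q-value as −log10 (the authors' threshold is q of 0.05, per the labels) and its summit. Deposited fold and −log10 values were used only to describe and rank peaks within a list, since depth is unknown, and intervals cover counting error only.

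Peaks were merged at 1 bp of overlap and classed by gene spans of RefSeq (GRCm38.p6). A library with several peaks in a region was represented by its strongest peak for strength and summit and by its widest for width. Members and lists were chosen with earlier results of these data known; symbols that matched a list by name alone were removed. Named genes are the 12 strongest, up to 3 per list, those nearest the window's edge, and the strongest with a full CRE and with no TGACG. They also include the 5 weakest, and those with the most different summits, the most peaks and the widest regions. Others are said to be picked or, like Crebbp, Fbxo32, Rps9 and Snrpg, were picked as examples. Motifs were searched on both strands in the promoter entry nearest the summits. Shares carry 95% Wilson intervals. Exact permutation tests over libraries (6 assignments of 2 against 2 libraries, or sign flips over 4) gave 5 p-values, adjusted by Benjamini-Hochberg. The merging, motif search and tests were tested on simulated data. Alternatives covered the window, the q-value, the overlap, the summit, each library left out, the percentile by fold, the width, the motif and the promoter entries. Python 3.11.15, pandas 2.3.3 and scipy 1.17.1 were used.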

Additional observations from a re-analysis of the deposited data

How the results depend on the processing

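The number of members stayed within 1644 to 1883 under 8 of 9 alternatives (windows of 500 or 2000 bp, −log10 q of at least 3, overlap of at least 100 bp, the strongest peak's summit alone, and 3 of the 4 left-out libraries). Leaving out each library gave 1757 to 3555 members, the highest without C26 replicate 2, where 1754 of the 1759 genes were kept. The share of member promoters with a full CRE was 9.26% with only the bases before the start, fewer bases searched, and 7.33% to 11.3% with a library left out; the other alternatives, some added after seeing the data, gave 9.85% to 12.1%. The difference from paired gene ends was -1.96 to 0.733 percentile points with a library left out, reversed only without C26 replicate 2; the cause was not tested. The other 4 differences kept their direction in every alternative run. The width fell by 207 to 338 bp. The distance to the start, or to the nearest gene end in members without a promoter entry, differed by 3 to 16.5 bp. The members exceeded regions away from gene ends by 11.3 to 16.1 points. Members with a full CRE exceeded those without by 9.53 to 19.5 points. In the paired analysis, a replicate block with sign flips within the 2 replicate numbers, the values were -267 bp (exact permutation p = 0.5) and 6 bp (exact permutation p = 1). The numbers pair the libraries in name alone. With 2 libraries a group, no test could pass 0.05. Unknown depth limits every comparison of list length, width or strength between libraries.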
